A study of Saccharomyces cerevisiae with 18 samples.

Results

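The genes described are the ribosome biogenesis factors of budding yeast whose names open with UTP, NOP, RRP, NOC, NSA, DBP, IMP, ENP, RPF or SSF and a number. The rule reads the symbol only. It matched 78 genes, of which DBP1, DBP5, IMP1, IMP2 and IMP2' were left out because they do other work, which left 73 of the 6159 genes listed in the monosome or the disome table. All 73 were listed in both tables, and all 73 passed the filter on low counts in each of the 10 fits of monosome counts, disome enrichment and wild-type library types.

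Ribosomes are built in the nucleolus, where the small subunit (SSU) processome folds and cuts the long precursor ribosomal RNA around the U3 small nucleolar RNA, and a second set of factors assembles the large subunit from the remaining precursor. The UtpA, UtpB and UtpC complexes and the Mpp10 complex are building blocks of the processome, small nucleolar ribonucleoproteins (snoRNPs) guide the modification of ribosomal RNA, and the nuclear exosome trims and degrades precursor RNA from its 3′ end. In yeast these genes form a co-regulated group, the ribosome biogenesis regulon, which is repressed under stress and when growth signals fall. As assigned here, the 73 genes comprised 6 of UtpA, 4 of UtpB, 2 of UtpC, 5 of snoRNPs, 2 of the Mpp10 complex, 19 other small subunit factors, 28 large subunit factors and 7 exosome genes. The groups hold only genes whose names match the rule, so they do not stand for whole complexes.

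Footprints, the mRNA stretches that ribosomes shield from nuclease, were counted per gene in 4 strains of the BY4741 background grown in YPD at 30 °C. All 4 are labelled MATa his3Δ1 leu2Δ0 ura3Δ0. The label of wild type adds met15Δ0, which the labels of the deletion strains do not list. *hel2*∆ carries hel2Δ::LEU2, *ncs2*∆*elp6*∆ carries ncs2Δ::HIS3MX and elp6Δ::URA3, and *ncs2*∆*elp6*∆*hel2*∆ carries all of these deletions. Ncs2 and Elp6 are needed for the sulphur and the Elongator-dependent modifications of wobble uridine (U34) in some tRNAs, and Hel2 is the ubiquitin ligase that marks collided ribosomes. Lone ribosomes leave monosome footprints, and 2 ribosomes pressed together leave a disome footprint. There were 10 monosome libraries (3 of wild type, 2 of *hel2*∆, 3 of *ncs2*∆*elp6*∆, 2 of *ncs2*∆*elp6*∆*hel2*∆), and for disomes each strain had 2 libraries, 8 in all. Replicate numbers come from the sample titles, and the study calls the libraries of a strain biological replicates.

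Monosome libraries held 2381991 to 24884873 counted footprints and disome libraries 845707 to 2521397. Depth followed the *HEL2* genotype, with at most 4352295 counts in the 4 monosome libraries that lacked *HEL2* and at least 11702547 in the other 6. Depth and *HEL2* therefore cannot be told apart in the monosome comparisons that remove *HEL2*. The same holds for disome enrichment where *HEL2* is removed, since it uses these monosome libraries. Monosome counts of *HEL2*, not scaled for depth, were 880, 910 and 1251 in wild type and 1990, 1319 and 973 in *ncs2*∆*elp6*∆. They were 6 and 4 in *hel2*∆ and 1 and 3 in *ncs2*∆*elp6*∆*hel2*∆. Monosome counts of *NCS2* and *ELP6* were at least 189 in each wild-type library and at most 26 in each library of the strains that lack both genes. Levels are given as CPM (counts scaled to a common library size) with TMM factors, a scaling that assumes that most genes do not differ. When library totals were used in place of TMM, an alternative chosen after seeing the data, the median log2 change of all genes tested in monosomes moved to 0.27 in *ncs2*∆*elp6*∆ against wild type, 0.27 in *hel2*∆ against wild type, 0.14 in *ncs2*∆*elp6*∆*hel2*∆ against *ncs2*∆*elp6*∆ and 0.13 in *ncs2*∆*elp6*∆*hel2*∆ against *hel2*∆. Changes are therefore relative to the bulk of genes, and directions that depend on this are given with their value under library totals.

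Per kilobase of gene, the factors had a high monosome level in wild type. Footprint levels depend on the amount of mRNA as well as on its translation, and no mRNA levels were used here. Their median monosome level was 70.9 CPM per kilobase, against 24.4 for the 5716 genes with a length in the RefSeq R64 annotation, and their own levels spanned 28.4 to 1421. The highest were the snoRNP proteins Nop10, Nop1 and Nop56. *NOP10*, a gene of 177 bases that was counted, like all genes, over a reading frame extended at both ends (the part of the extension was not tested), was at 1421 ± 50.7 CPM per kilobase (SD, n = 3), *NOP1*, which encodes the RNA methyltransferase fibrillarin, at 1243 ± 166, and *NOP56*, a core protein of box C/D snoRNPs, at 628 ± 40.9. The lowest were *NOP8*, a large subunit factor, at 28.4 ± 2.99, *SSF2* at 30.3 ± 2.15 and *UTP10*, the largest subunit of UtpA, at 31.1 ± 2.61, which lie within their spread of each other. Together the 73 genes took 1.17% ± 0.0336 of monosome counts in wild type (SD, n = 3).

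To see how footprints on these genes differed without U34 modification, monosome footprints of *ncs2*∆*elp6*∆ were compared with wild type. The calls lay on different sides in different role groups. In UtpB, UtpA and the exosome genes were called higher only, and the snoRNP genes lower only, while the large subunit factors were mostly lower relative to the bulk of genes and mostly higher with library totals. By the quasi-likelihood F test of edgeR, 45 of 73 factors (61.6%) passed an adjusted p of 0.05, 20 higher and 25 lower, where 53.0% of all genes tested passed (26.6% higher and 26.4% lower). Their median log2 change was −0.03 against 0.02 for all genes, and single factors ranged from −0.96 to 0.64. With library totals the split was 39 higher and 9 lower, beside 2620 higher and 613 lower of the 5281 genes tested. The median log2 change was then 0.22, against 0.27 for all genes. Role group counts with library totals, given below, stand beside these counts of all genes.

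In UtpB, 3 of 4 genes rose and none fell, and with library totals 4 of 4 rose. *UTP18* (YJL069C, chrX:310922-312706 in R64), a WD-repeat subunit, was at 91.2, 98.3 and 79.6 CPM in wild type and at 137, 127 and 130.3 CPM in *ncs2*∆*elp6*∆. *UTP21*, another WD-repeat subunit, was at 95.6, 98.2 and 98.9 CPM in wild type and at 145, 148 and 136 CPM in *ncs2*∆*elp6*∆. Every *ncs2*∆*elp6*∆ library lay above every wild-type library for both genes, as for 31.5% of all genes, while 28.4% of all genes lay wholly below. The log2 changes were 0.54 (SE 0.08, adjusted p = 4.76e-05) and 0.54 (SE 0.07, adjusted p = 1.21e-05). In UtpA, which binds the start of the precursor, 3 of 6 genes rose, and 6 of 6 rose with library totals. *UTP10* (YJL109C, chrX:212000-217309) stood at 149, 174 and 172 CPM in wild type and at 257, 240.5 and 224 CPM in *ncs2*∆*elp6*∆. Its groups did not overlap, with a log2 change of 0.53 (SE 0.08, adjusted p = 4.47e-05), and *UTP8*, which also has a role in tRNA export, rose by 0.30 (adjusted p = 0.0091), a call lost without wild type replicate 1 or *ncs2*∆*elp6*∆ replicate 1. Of the Mpp10 complex, *IMP4* rose by 0.31 (adjusted p = 0.00419) and *IMP3* was at 0.09 (adjusted p = 0.407). In UtpC, *UTP22* had a log2 change of −0.25 (adjusted p = 0.0244), which was 0.00 with library totals and lost its call in 6 of 13 alternatives, and *RRP7* was at 0.15 (adjusted p = 0.119).

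All 5 snoRNP genes fell, with a median log2 change of −0.30, but with library totals only 1 of the 5 passed the test and the median was −0.05, so that their fall is one against the bulk of genes. *NOP58*, a core box C/D protein, was at 676, 784 and 633 CPM in wild type and 544, 512 and 441 CPM in *ncs2*∆*elp6*∆, and had a log2 change of −0.49 (SE 0.09, adjusted p = 0.000343). *NOP1* (YDL014W, chrIV:427364-428347) was at 1292, 1341 and 1037 CPM in wild type and 986, 940.3 and 881 CPM in *ncs2*∆*elp6*∆, all 3 of the latter below all 3 of the former, with a log2 change of −0.40 (SE 0.09, adjusted p = 0.00154). The calls of *NOP1* and *NOP56* were among those lost with library totals, and that of *NOP10* was also lost without 3 of the 6 libraries in turn.

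Of the 7 exosome genes 5 rose and none fell, with a median log2 change of 0.30 (6 of 7 higher with library totals). Its examples were *RRP46* at 0.44 (adjusted p = 0.000361) and *RRP40* at 0.38 (adjusted p = 0.00111), both subunits of the core. The other small subunit factors were divided, with 6 of 19 higher and 6 lower (11 and 2 with library totals). *RRP12*, an export factor of the pre-ribosomes, was at 208, 249 and 214 CPM in wild type and at 348, 343 and 303 CPM in *ncs2*∆*elp6*∆. *NOP6* (YDL213C, chrIV:77289-77966), an RNA-binding protein of early small subunit assembly, was at 134, 142 and 129.7 CPM in wild type and at 72.6, 63.4 and 74.0 CPM in *ncs2*∆*elp6*∆. The groups of both genes lay apart, *RRP12* higher at 0.56 (SE 0.08, adjusted p = 3.69e-05) and *NOP6* lower at −0.96 (SE 0.08, adjusted p = 8.73e-08). No other factor fell as far as *NOP6*.

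Among the 28 large subunit factors, 2 rose and 13 fell, with a median log2 change of −0.13, whereas with library totals 9 rose and 6 fell and the median was 0.13. *DBP6*, a DEAD-box helicase of early large subunit assembly, was at 82.4, 87.8 and 92.8 CPM in wild type and 149, 135 and 129 CPM in *ncs2*∆*elp6*∆, and had the highest log2 change of all factors, 0.64 (SE 0.08, adjusted p = 7.04e-06). *NOP13*, a nucleolar RNA-binding protein, was at 295, 321 and 272 CPM in wild type and 175, 157 and 170.0 CPM in *ncs2*∆*elp6*∆. *NSA1*, a component of large subunit precursors, was at 86.5, 88.0 and 80.8 CPM in wild type and 53.9, 46.5 and 45.9 CPM in *ncs2*∆*elp6*∆. Both were lower in every *ncs2*∆*elp6*∆ library, at −0.83 (SE 0.08, adjusted p = 3.03e-07) and −0.81 (SE 0.08, adjusted p = 1.06e-06). *NOC3*, which acts with Noc2 in large subunit precursors, and *RRP17*, a 5′ exonuclease, fell as well, at −0.64 (adjusted p = 4.45e-06) and −0.60 (adjusted p = 3.59e-05). The paralogs *SSF1* and *SSF2*, which share sequence and whose counts rest on uniquely mapped reads only, were at −0.31 (adjusted p = 0.00275) and −0.39 (adjusted p = 0.00205), and neither passed with library totals.

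**Figure D1:**
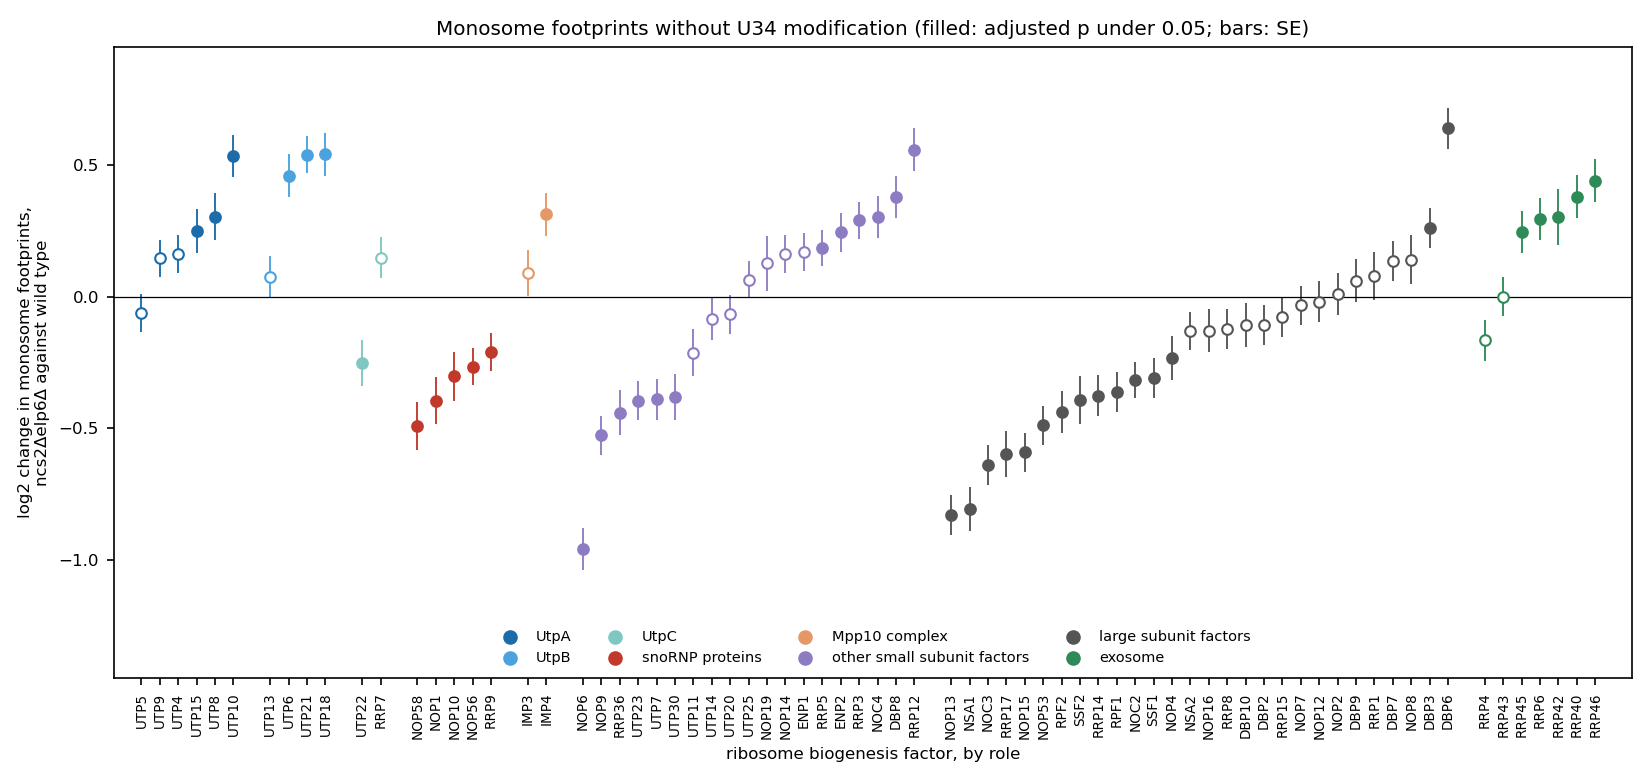
Log2 change in monosome footprints of each of the 73 factors in *ncs2*Δ*elp6*Δ against wild type, grouped by role, with SE as bars and filled points for an adjusted p under 0.05. The 5 snoRNP genes lie below 0, with a median of −0.30 that moves to −0.05 with library totals, and the UtpB and exosome medians lie above 0 under both scalings.

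The same loss of modification was read in cells without *HEL2* from *ncs2*∆*elp6*∆*hel2*∆ against *hel2*∆, a pair of strains that shares no library with *ncs2*∆*elp6*∆ against wild type. Here 43 factors (58.9%) passed, 33 higher and 10 lower, where 44.2% of all genes passed (22.5% higher and 21.7% lower), and the median log2 change was 0.15 against 0.00 for all genes. With library totals, 39 were higher and 4 lower, beside 1549 higher and 738 lower of the 5027 genes tested. The count fell to 26 without *hel2*∆ replicate 1, to 25 without *hel2*∆ replicate 2 and to 25 with the test of DESeq2. All 4 UtpB genes, 4 of 6 UtpA genes, 4 of 7 exosome genes and 12 of 19 other small subunit factors rose, and the large subunit factors split into 7 higher and 5 lower.

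*UTP18* was at 61.5 and 60.2 CPM in *hel2*∆ and 112 and 113 CPM in *ncs2*∆*elp6*∆*hel2*∆, a log2 change of 0.89 (SE 0.11, adjusted p = 8.6e-10). *DBP6* was at 78.8 and 84.7 CPM in *hel2*∆ and 159 and 142 CPM in *ncs2*∆*elp6*∆*hel2*∆, a change of 0.87 (SE 0.10, adjusted p = 1.29e-10). *RRP12* was at 273 and 234 CPM in *hel2*∆ and 419 and 383 CPM in *ncs2*∆*elp6*∆*hel2*∆. These genes also led the rise in the strains with *HEL2*, and *RRP12* changed by 0.67 (SE 0.08, adjusted p = 2.35e-10). *NOC4*, which works with Nop14 in the processome, rose by 0.62 (adjusted p = 1.31e-05) and *RRP46* by 0.61 (adjusted p = 0.000176). At the other end, *NOP6* was at 104 and 94.2 CPM in *hel2*∆ and 65.3 and 64.1 CPM in *ncs2*∆*elp6*∆*hel2*∆, and *NOP13* at 243 and 234 and 168 and 156 CPM. Both fell again, at −0.60 (adjusted p = 9.68e-06) and −0.56 (adjusted p = 1.03e-07), followed by *NOC3* at −0.45 (adjusted p = 0.000301), *NSA1* at −0.44 (adjusted p = 0.00235) and *UTP7*, a WD-repeat processome factor, at −0.33 (adjusted p = 0.0177). Without *hel2*∆ replicate 2 the calls of *NSA1* and *UTP7* were lost, and that of *UTP7* also without *ncs2*∆*elp6*∆*hel2*∆ replicate 1 and with library totals.

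Set side by side, 52 of 73 factors had the same sign in both pairs of strains, 18 (24.7%) were called higher in both and 9 (12.3%) lower in both, beside 15.8% and 16.1% of the 5025 genes in both fits. Across the factors the changes had a Spearman rho of 0.82, given as a description because genes are not independent replicates and share the libraries of each comparison, and over the 5025 genes it was 0.70 with 3792 of the same sign. The factors lower in both included *NOP6*, *NOP13*, *NSA1* and *NOC3*, which kept both calls with library totals. Also among them were *NOP1*, *RRP17*, *UTP7* and *UTP22*, whose calls in the strains without *HEL2* were lost with library totals. The remaining one, *NOP9*, was named after its values were seen, as were *NOP4*, *NOP56* and *RRP14*, the 3 (4.11%, beside 1.01% of the 5025 genes) that were called in opposite directions. *NOP56* had log2 changes of −0.27 with *HEL2* and 0.16 without it, *NOP4* −0.23 and 0.20, and *RRP14* −0.38 and 0.30. With library totals *NOP56* was at −0.01 with *HEL2* and lost that call. The median of all genes there moved from 0.02 to 0.27, so the lower values of *NOP4* and *RRP14* are also relative to the bulk of genes.

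**Figure D2:**
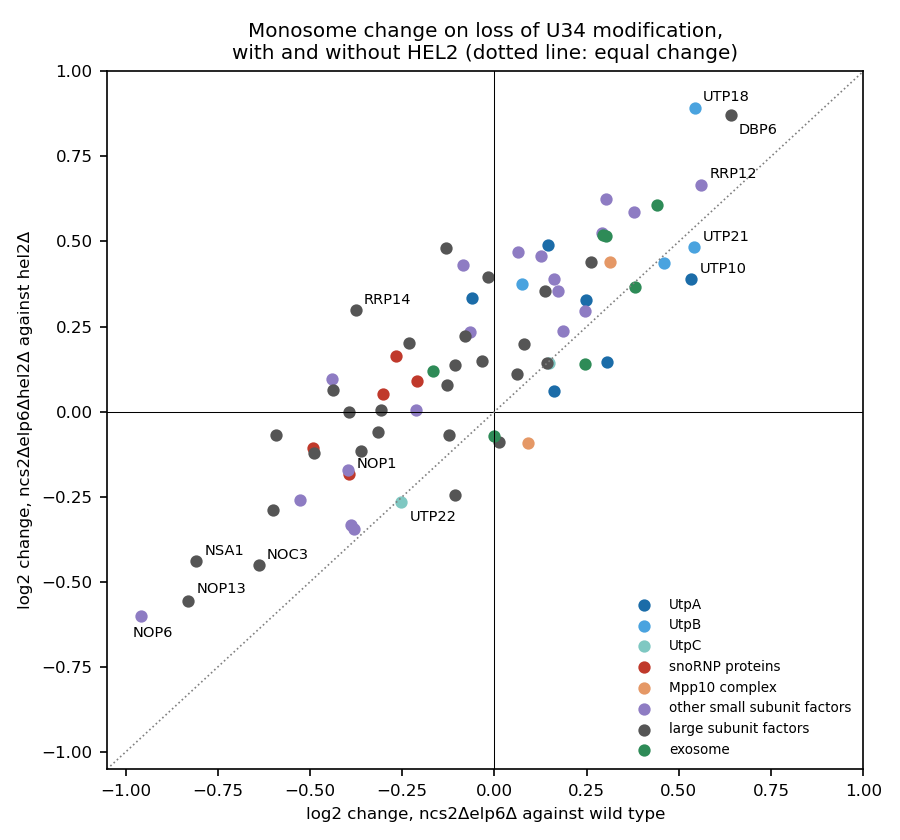
Log2 change in monosome footprints on loss of U34 modification for the 73 factors, with *HEL2* present (horizontal) and deleted (vertical), coloured by role. The ranks of the factors were alike on both axes (Spearman rho 0.82), with *DBP6* and *UTP18* high and *NOP6* and *NOP13* low, and the medians were −0.03 and 0.15.

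Where *HEL2* alone was deleted, most called factors were lower relative to the bulk of genes, although not with library totals. In *hel2*∆ against wild type, 34 of 73 factors (46.6%) passed, 5 higher and 29 lower, where 31.9% of all genes passed (14.7% higher and 17.2% lower), and the median log2 change was −0.17 against 0.03 for all genes. The direction of the group turns with the scaling. With library totals 14 were higher and 7 lower, beside 1937 and 337 of the 5225 genes tested, with a median of 0.07. The median of the factors differed from that of all genes by −0.20 under both scalings. Lower calls lay among the large subunit factors, of which 17 of 28 fell and none rose (5 fell and 1 rose with library totals), and the other small subunit factors, of which 9 of 19 fell and 1 rose (none fell and 4 rose with library totals). The count was 20 without wild type replicate 2, 18 without *hel2*∆ replicate 1 and 10 without *hel2*∆ replicate 2. It was 23 with the monosome libraries thinned to equal depth.

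*RRP14* (YKL082C, chrXI:281025-282329), needed for both subunits, had 220.4, 217 and 208 CPM in the wild-type libraries and 137 and 129 CPM in the *hel2*∆ libraries. *RPF2* (YKR081C, chrXI:591506-592540), which brings the 5S particle into the large subunit, had 250.3, 252 and 214 CPM in the wild-type libraries and 166 and 155 CPM in the *hel2*∆ libraries. Both genes were lower in each *hel2*∆ library than in each wild-type library, as were 29.6% of all genes. Their log2 changes were −0.68 (SE 0.08, adjusted p = 9.72e-06) and −0.56 (SE 0.09, adjusted p = 0.000133). *NOP4*, an RNA-binding protein of the large subunit pathway, was at 296, 315 and 246 CPM and 194 and 188 CPM, and changed by −0.57 (adjusted p = 0.000309). *NOP1* was at 837 and 826 CPM in *hel2*∆ and changed by −0.54 (adjusted p = 0.000601). *UTP18* changed by −0.55 (adjusted p = 0.00117), a call that was lost without *hel2*∆ replicate 2, opposite to its rise on loss of modification.

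The 5 genes that rose all encode processome proteins of 2142 to 7482 bases. *UTP10* had 229.9 and 249.6 CPM in *hel2*∆ beside 149, 174 and 172 CPM in wild type, and rose by 0.55 (SE 0.09, adjusted p = 0.000134). *UTP22* (YGR090W, chrVII:662358-666071), the large scaffold of UtpC, had 185 and 181 CPM in *hel2*∆ beside 116, 129.9 and 149 CPM in wild type, and rose by 0.49 (SE 0.10, adjusted p = 0.00188). *UTP8*, *UTP20* and *UTP4* passed with smaller changes of 0.28, 0.26 and 0.24, and each was lost without either *hel2*∆ replicate. Gene length moved with these changes. Over the 72 factors with a length free of introns, the log2 change had a Spearman rho of 0.46 with length, against 0.28 over 5202 genes. Of the 36 factors of at least 1453.5 bases, 5 rose and 9 fell, with a median of −0.10 against 0.14 for all genes that long, and of the 36 shorter ones none rose and 19 fell, with a median of −0.29 against −0.05. The factors thus had a lower median than all genes in both length classes, and the part of length itself was not tested.

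**Figure D3:**
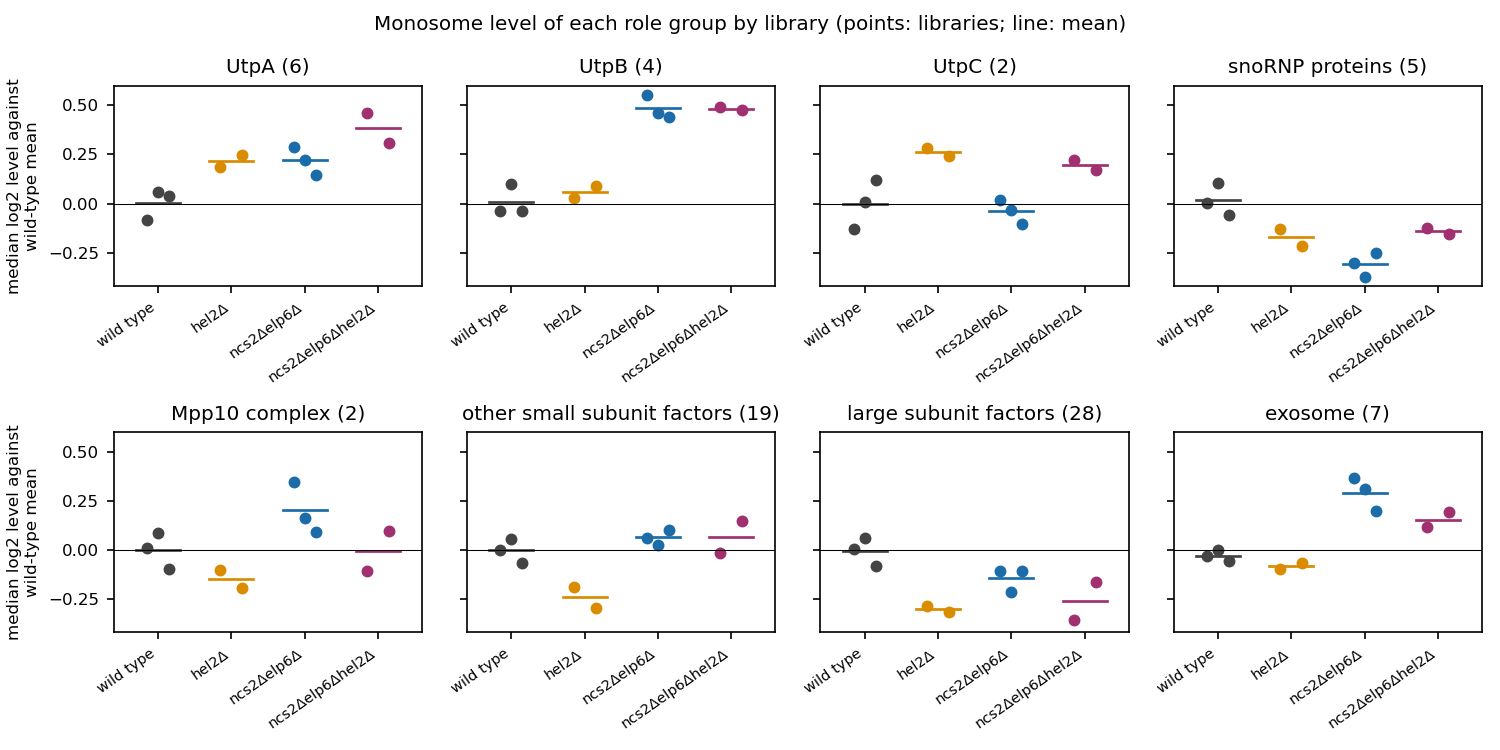
Median log2 monosome level of each role group in each library, relative to the wild-type mean (points are libraries, lines are strain means, numbers in titles are genes). UtpB stands between 0.44 and 0.55 in the 3 *ncs2*Δ*elp6*Δ libraries and the large subunit factors between −0.28 and −0.31 in the *hel2*Δ libraries, where library totals move the median of *hel2*Δ against wild type to −0.04.

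The deletion of *HEL2* was also read in cells without the modifications. In *ncs2*∆*elp6*∆*hel2*∆ against *ncs2*∆*elp6*∆, 13 (17.8%) passed, 8 higher and 5 lower, where 24.3% of all genes passed (12.0% higher and 12.2% lower), with a median log2 change of 0.01 against 0.00. With library totals 21 passed, 19 higher and 2 lower, with a median of 0.15, and without *ncs2*∆*elp6*∆*hel2*∆ replicate 1 the count was 5. Of all 5318 genes tested, 1232 were higher and 345 lower with library totals. *UTP20*, the longest of the factors and a HEAT-repeat protein of the processome, was at 230.2, 250.1 and 228 CPM in *ncs2*∆*elp6*∆ and 369 and 320.1 CPM in *ncs2*∆*elp6*∆*hel2*∆. *UTP22* was at 115, 113 and 106 CPM and 153 and 149.9 CPM. Their log2 changes were 0.55 (SE 0.08, adjusted p = 0.000259) and 0.45 (SE 0.08, adjusted p = 0.0011). Neither overlapped between the strains, and 27.3% of all genes were likewise higher without overlap. *UTP10*, *UTP13* of UtpB and *UTP15* of UtpA rose by 0.39, 0.38 and 0.33, the last with a call lost in 4 of 12 alternatives, among them without either *ncs2*∆*elp6*∆*hel2*∆ replicate. *DBP2*, an abundant DEAD-box helicase, was at 635, 601 and 671 CPM in *ncs2*∆*elp6*∆ and 416 and 429 CPM in *ncs2*∆*elp6*∆*hel2*∆, a log2 change of −0.58 (SE 0.08, adjusted p = 6.73e-05). *NOP2*, a methyltransferase of the large ribosomal RNA, *NOP16* and *NOP1* followed at −0.40, −0.36 and −0.36, and their calls were lost without *ncs2*∆*elp6*∆*hel2*∆ replicate 1. The calls of *NOP2* and *NOP16* were also lost with library totals. That of *NOP2*, which ranged from −0.71 to −0.18 over the alternatives, was also lost without *ncs2*∆*elp6*∆ replicate 3. *RRP45* of the exosome was lower at −0.28, a call lost in 8 of 12 alternatives, library totals among them. The 8 genes that rose spanned 1515 to 7482 bases and the lower ones 696 to 1857, and the Spearman rho with length was 0.48 over 72 factors and 0.33 over 5290 genes.

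This pair of strains shares no library with *hel2*∆ against wild type. Called higher in both were *UTP10*, *UTP20* and *UTP22*, called lower in both were *DBP2*, *NOP1*, *NOP2* and *NOP16*, and none was called in opposite directions. These are 4.11% and 5.48% of the factors, beside 5.58% higher in both, 7.31% lower in both and 0.462% opposite among 5199 genes. The Spearman rho of the changes was 0.61 over the factors and 0.51 over all these genes, with 44 and 3567 of the same sign. *UTP22* was higher where *HEL2* was deleted, at 0.49 and 0.45. It was lower where the modifications were lost, at −0.25 (0.00 with library totals) and −0.27, and both of these lower calls were lost with library totals. *UTP10* was called higher in each of the 4 pairs and *NOP1* lower in each. With library totals, however, *NOP1* lost its call in *ncs2*∆*elp6*∆ against wild type and in *ncs2*∆*elp6*∆*hel2*∆ against *hel2*∆.

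The effect of deleting *HEL2* was also compared between the backgrounds in 1 fit of all 4 strains. The difference passed for 5 factors (6.85%), all positive, where 5.29% of all genes passed (2.99% positive and 2.30% negative), and the median difference was 0.21 against −0.01 for all genes. They were *RRP14* at 0.65 (SE 0.16, adjusted p = 0.0199), *NSA2* at 0.59 (adjusted p = 0.00729), *NOP15* at 0.50 (adjusted p = 0.0185), *RPF2* at 0.48 (adjusted p = 0.0282) and *NOP56* at 0.41 (adjusted p = 0.0209). *NSA2*, a factor of large subunit precursor cutting, was at 321, 339 and 287 CPM in wild type, whereas *hel2*∆ had 228 and 207 CPM, *ncs2*∆*elp6*∆ 297, 284 and 289.6 CPM and *ncs2*∆*elp6*∆*hel2*∆ 279 and 319 CPM. *NSA2* was thus low in *hel2*∆ only, and the *ncs2*∆*elp6*∆ and *ncs2*∆*elp6*∆*hel2*∆ libraries overlapped. *NOP15*, an RNA-binding protein of the large subunit pathway, was at 232, 248 and 222 CPM in wild type, whereas *hel2*∆ had 188 and 168 CPM, *ncs2*∆*elp6*∆ 168, 149 and 151 CPM and *ncs2*∆*elp6*∆*hel2*∆ 165 and 171 CPM. *RPF2* in the last 2 strains was at 186, 179 and 167 CPM and 161 and 171 CPM. Each library of the other 3 strains stood below each wild-type library for both genes. *NOP56* (YLR197W, chrXII:546097-547611) was at 920.1, 1024 and 913 CPM in wild-type cells, whereas *hel2*∆ had 825 and 819 CPM, *ncs2*∆*elp6*∆ 794, 798 and 799 CPM and *ncs2*∆*elp6*∆*hel2*∆ 889.6 and 942 CPM. With *HEL2* deleted *NOP56* was thus lower in each library of the modified background and higher in each of the other. The count was 15 without wild type replicate 3, 2 without *hel2*∆ replicate 1, 0 without *hel2*∆ replicate 2 and 0 without *ncs2*∆*elp6*∆*hel2*∆ replicate 2, and 25 factors (34.2%) had an unadjusted p under 0.05 in the full fit, beside 21.7% of all genes.

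**Figure D4:**
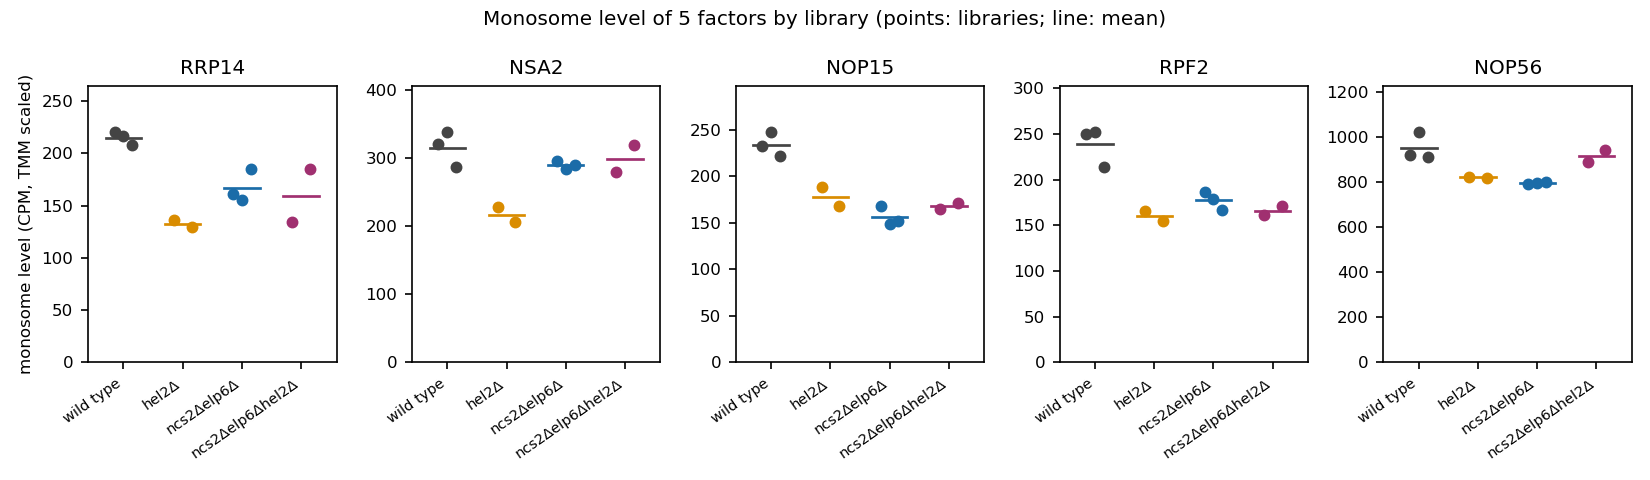
Monosome level in TMM-scaled CPM of *RRP14*, *NSA2*, *NOP15*, *RPF2* and *NOP56* in each library of the 4 strains (points) with the strain mean (line). *NSA2* is low in *hel2*Δ only, and *NOP56* is lower in *hel2*Δ than in wild type and higher in *ncs2*Δ*elp6*Δ*hel2*Δ than in *ncs2*Δ*elp6*Δ.

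Disome footprints were then set against monosome footprints, which places each gene by its share of closely packed ribosomes. Only differences between genes can be read, since each library is scaled to its own total. In wild type, 39 factors (53.4%) passed, 4 with more disomes than the bulk of genes and 35 with fewer, where 50.9% of all genes passed (24.7% higher and 26.2% lower), and the median log2 ratio was −0.31 against −0.05 for all genes. With library totals it was −0.52, with 2 higher and 43 lower, beside 952 higher and 1783 lower of the 5259 genes tested. The large subunit factors were lowest, with 19 of 28 called lower, 2 higher and a median of −0.65. *RRP14* was lowest, at −2.33 (SE 0.15, adjusted p = 1.8e-06), with disome levels of 32.5 and 41.3 CPM beside monosome levels of 220.4, 217 and 208 CPM. *NOP19*, a small processome protein, followed at −1.98 (adjusted p = 0.000151) on only 11 and 16 disome counts, then *RRP8*, a methyltransferase of the large ribosomal RNA, at −1.76, *RRP42* of the exosome at −1.71 and *RRP17* at −1.57. *UTP22*, *RPF1*, *UTP8* and *DBP2* were called higher, at 0.76, 0.76, 0.67 and 0.38. Without wild type replicate 1 the calls of *UTP22*, *RPF1* and *DBP2* were lost, and over the alternatives *RPF1* ranged from 0.17 to 1.15 and *UTP22* from 0.38 to 0.99.

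Disome enrichment, the change in disome counts beyond the change in monosome counts, was fitted as an interaction between strain and library type. In *ncs2*∆*elp6*∆ against wild type it rose for 15 factors (20.5%) and fell for none, where 18.6% of all genes passed (9.98% higher and 8.65% lower). The share is near that background, and all of the calls lay on 1 side. The median log2 enrichment was 0.27 against −0.00 for all genes, and 59 of 73 factors were positive (80.8%, beside 49.6% of all genes). With library totals 16 rose and none fell, beside 597 higher and 416 lower of the 5400 genes tested. The 15 comprised 7 large subunit factors, 5 other small subunit factors and 1 gene each of the snoRNPs, UtpA and the exosome. Without *ncs2*∆*elp6*∆ replicate 2 the count was 7, and without wild type replicate 2 the median was 0.15. The share of disome counts taken by the factors was 0.845% ± 0.0808 in wild type and 1.25% ± 0.00388 in *ncs2*∆*elp6*∆ (SD, n = 2 each), and their share of monosome counts was 1.17% ± 0.0336 and 1.31% ± 0.0572 (SD, n = 3 each).

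*RRP14* had the largest enrichment, with log2 disome to monosome ratios of −2.69 and −2.34 in the wild-type pairs and −1.35 and −1.09 in the *ncs2*∆*elp6*∆ pairs, and an interaction of 1.27 (SE 0.21, adjusted p = 0.000423). *UTP11* (YKL099C, chrXI:255720-256472), a processome protein, had ratios of 0.08 and −0.80 in wild type and 0.79 and 0.90 in *ncs2*∆*elp6*∆, and an interaction of 1.20 (SE 0.21, adjusted p = 0.000725). *UTP23* (YOR004W, chrXV:333592-334356), needed for release of the snR30 RNA, went from −0.21 and −0.22 to 0.71 and 0.91, an interaction of 1.10 (SE 0.16, adjusted p = 0.000204). In all 3 genes the *ncs2*∆*elp6*∆ pairs lay above the wild-type pairs, as for 26.9% of all genes. *NOP56* had disome levels of 699.5 and 619.9 CPM in wild type and 1153 and 1163 CPM in *ncs2*∆*elp6*∆, while its monosome level fell relative to the bulk of genes. Its ratios were −0.39 and −0.72 in wild type and 0.54 and 0.54 in *ncs2*∆*elp6*∆. Its interaction of 1.10 (SE 0.12, adjusted p = 1.81e-05) had the lowest p among the factors. *NOP14*, the partner of Noc4, followed at 0.94 (adjusted p = 0.000932). The calls of these 5 genes held in each alternative tried.

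Enrichment is built from disome and monosome counts, so the calls in each are given for the 15 factors with higher enrichment as a description. Of these, 11 were also called higher in disome counts alone, and in monosomes 4 were higher and 6 lower. The shares of all genes were 12.8% higher in disomes and 26.6% higher and 26.4% lower in monosomes. They are no matched background, since the 15 were picked by these same counts. *NOP56*, *RRP14* and *UTP23* were higher in disomes and lower in monosomes at once, relative to the bulk of genes. With library totals the monosome change of *NOP56* was −0.01 and uncalled. *DBP6*, at an enrichment of 0.87 (adjusted p = 0.00204), and *RRP46*, at 0.71 (adjusted p = 0.0183), rose in both. *RPF2*, *NOC3* and *UTP7* passed for enrichment at 0.58, 0.66 and 0.69 with lower monosome counts and no call in disome counts alone. The genes of this paragraph other than *NOP56*, *RRP14* and *UTP23* were named for their enrichment after its values were seen.

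Deleting *HEL2* in the modification-deficient cells moved the enrichment of 11 factors (15.1%), 6 higher and 5 lower, where 17.1% of all genes passed (8.96% higher and 8.16% lower), with a median of −0.03 against −0.00. The *ncs2*∆*elp6*∆ libraries enter both this comparison and the one with wild type, so that the values are given side by side. With library totals 3 were higher and 11 lower, beside 328 and 571 of the 5024 genes tested. The count was 5 without *ncs2*∆*elp6*∆ replicate 1, 6 without *ncs2*∆*elp6*∆ replicate 2 and 6 without *ncs2*∆*elp6*∆*hel2*∆ replicate 2. *NOP56* was lower in *ncs2*∆*elp6*∆*hel2*∆, with ratios of 0.14 and 0.08 against 0.54 and 0.54 in *ncs2*∆*elp6*∆ and an interaction of −0.45 (SE 0.10, adjusted p = 0.0012). Its ratios in *ncs2*∆*elp6*∆*hel2*∆ lay between those of wild type and *ncs2*∆*elp6*∆. *UTP11* had ratios of 0.16 and 0.15 in *ncs2*∆*elp6*∆*hel2*∆ and changed by −0.69 (SE 0.18, adjusted p = 0.00689). *NOP12* (YOL041C, chrXV:251267-252646), an RNA-binding protein of the large subunit pathway, had ratios of −0.76 and −0.99 in wild type, −0.05 and 0.17 in *ncs2*∆*elp6*∆ and −0.37 and −0.40 in *ncs2*∆*elp6*∆*hel2*∆, with changes of 0.93 (SE 0.15, adjusted p = 0.000368) and −0.44 (SE 0.14, adjusted p = 0.0206). The second change was lost for *UTP11* without *ncs2*∆*elp6*∆ replicate 2 or *ncs2*∆*elp6*∆*hel2*∆ replicate 2, and for *NOP12* without replicate 1 or 2 of either strain. *NOP56* kept its call in each alternative.

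The lowest call of this comparison was *NOP10* (YHR072W-A, chrVIII:241664-241840), the small H/ACA snoRNP protein, with ratios of −0.03 and −0.33 in wild type, −0.00 and −0.25 in *hel2*∆, 0.16 and 0.28 in *ncs2*∆*elp6*∆ and −1.15 and −0.67 in *ncs2*∆*elp6*∆*hel2*∆. It stood apart in *ncs2*∆*elp6*∆*hel2*∆ alone, with changes of −1.02 (SE 0.18, adjusted p = 0.000171) against *ncs2*∆*elp6*∆ and −0.76 (SE 0.17, adjusted p = 0.00791) against *hel2*∆. *UTP18* went the other way, with ratios of −0.44 and −0.66 in wild type, 0.02 and 0.23 in *hel2*∆, −1.14 and −0.92 in *ncs2*∆*elp6*∆ and 0.01 and 0.21 in *ncs2*∆*elp6*∆*hel2*∆. It was lowest in *ncs2*∆*elp6*∆ and above wild type in both strains that lack *HEL2*, and its change of 1.14 (SE 0.18, adjusted p = 1.98e-05) in *ncs2*∆*elp6*∆*hel2*∆ was the highest. *NOP2* followed, with ratios of −1.44 and −1.43 in *ncs2*∆*elp6*∆ and −0.20 and −0.71 in *ncs2*∆*elp6*∆*hel2*∆ and a change of 0.95 (SE 0.20, adjusted p = 0.00087). *RRP9* of the U3 snoRNP, *UTP8* and *UTP21* rose by 0.60, 0.58 and 0.52, with calls lost in 6, 2 and 4 of 13 alternatives, each among them without *ncs2*∆*elp6*∆ replicate 1, and *NSA2* was lower at −0.40 (adjusted p = 0.0434), a call lost in 7 of 13 alternatives.

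**Figure D5:**
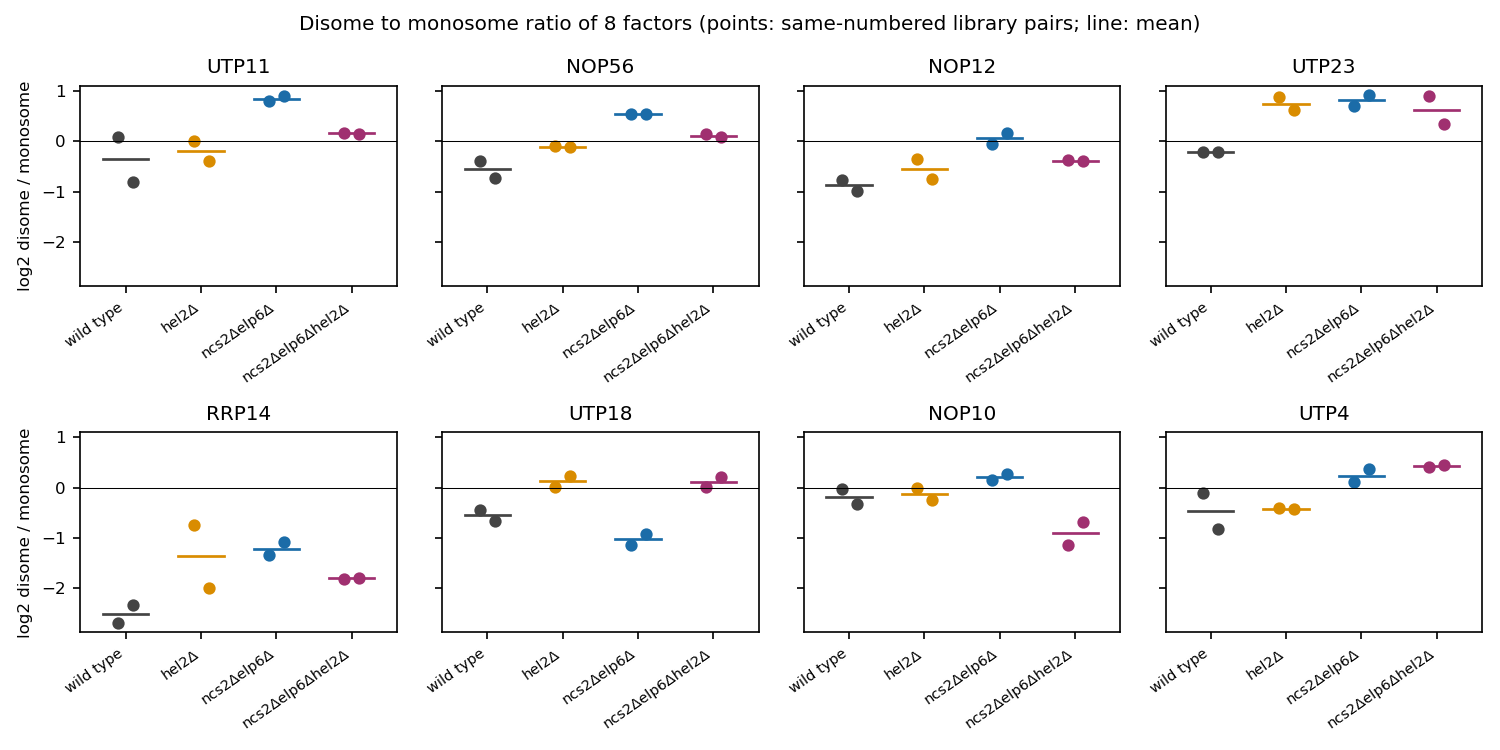
Log2 ratio of disome to monosome level, on the scale of CPM plus 2, of 8 factors in each same-numbered pair of libraries (points) with the strain mean (line). *NOP56*, *UTP11* and *NOP12* are highest in *ncs2*Δ*elp6*Δ, *UTP18* is lowest there, and *NOP10* is low in *ncs2*Δ*elp6*Δ*hel2*Δ only.

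In *hel2*∆ against wild type, 3 factors (4.11%) passed for enrichment, all higher, where 5.13% of all genes passed (2.39% higher and 2.73% lower). The median was 0.26 against −0.02 for all genes, 61 of 73 factors (83.6%, beside 48.5% of all genes) were positive, and 21 (28.8%, beside 20.4%) had an unadjusted p under 0.05. *UTP23* had ratios of −0.21 and −0.22 in wild type and 0.88 and 0.61 in *hel2*∆ and passed at 0.92 (SE 0.20, adjusted p = 0.0141). *RPF2* had ratios of −1.24 and −1.33 and −0.38 and −0.48 and passed at 0.75 (SE 0.18, adjusted p = 0.0252). *UTP14*, the activator of the processome helicase Dhr1, had ratios of −1.37 and −0.98 and −0.28 and −0.40 and passed at 0.73 (SE 0.19, adjusted p = 0.036). Their groups did not overlap, as for 24.9% of all genes on the higher side and 22.4% on the lower. All 3 were called lower in monosomes and none higher in disome counts alone. There only *UTP20*, named after its value was seen, passed (1 factor, against 0.839% of all genes). The count was 1 without wild type replicate 1, 0 without *hel2*∆ replicate 1, 0 without *hel2*∆ replicate 2 and 0 with library totals, and 12 with all 4 strains in the fit.

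In *ncs2*∆*elp6*∆*hel2*∆ against *hel2*∆, 6 factors (8.22%) passed, 3 higher and 3 lower, where 9.02% of all genes passed (4.55% higher and 4.47% lower), with a median of −0.04 against −0.01. The count was 1 without *ncs2*∆*elp6*∆*hel2*∆ replicate 1, 1 without *ncs2*∆*elp6*∆*hel2*∆ replicate 2 and 3 with library totals. *UTP4* of UtpA had ratios of −0.41 and −0.43 in *hel2*∆ and 0.40 and 0.44 in *ncs2*∆*elp6*∆*hel2*∆, and an interaction of 0.85 (SE 0.17, adjusted p = 0.00275), beside 0.76 (adjusted p = 0.00962) in *ncs2*∆*elp6*∆ against wild type. *NOP14* was at 0.56 (adjusted p = 0.0488), so that *UTP4* and *NOP14* passed for loss of modification with and without *HEL2*, although without *HEL2* the call of *NOP14* was lost in 7 of 12 alternatives and that of *UTP4* without *ncs2*∆*elp6*∆*hel2*∆ replicate 2. The lower calls were *NOP10*, *NSA2* at −0.59 (adjusted p = 0.023) and *UTP20* at −0.56 (adjusted p = 0.0356), all lost with library totals. *RRP7*, the partner of Utp22, passed at 1.56 (SE 0.36, adjusted p = 0.00938) on 31 and 19 disome counts in the *hel2*∆ libraries, with ratios of −1.14 and −2.71, and its call was lost without *hel2*∆ replicate 2 and without either *ncs2*∆*elp6*∆*hel2*∆ replicate. Over the factors, the enrichment on loss of modification had a Spearman rho of 0.26 between the *HEL2* backgrounds, against 0.82 for the monosome change, with 37 of 73 of the same sign. Over the 5033 genes in both fits the rho was 0.29.

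Other genes of ribosome biogenesis, 75 that the naming rule does not reach, were counted in the same fits, with TMM only. Their directions are therefore relative to the bulk of genes. In *hel2*∆ against wild type the direction of the 73 turned with library totals, and the 75 were not counted under that scaling. In monosomes of *ncs2*∆*elp6*∆ against wild type 14 rose and 21 fell (26.6% and 26.4% of all genes). In *hel2*∆ against wild type 1 rose and 32 fell (14.7% and 17.2% of all genes). In *ncs2*∆*elp6*∆*hel2*∆ against *ncs2*∆*elp6*∆ 6 rose and 7 fell (12.0% and 12.2%), and in *ncs2*∆*elp6*∆*hel2*∆ against *hel2*∆ 33 rose and 8 fell (22.5% and 21.7%). For the enrichment of disomes in *ncs2*∆*elp6*∆, 17 were higher than in wild type and 7 lower (9.98% and 8.65% of all genes), where none of the 73 was lower. Other traits of the 73 were shared by these 75. Enrichment in *hel2*∆ against wild type was positive in 64 (85.3%). The *HEL2* effect differed for 8, all positive, with a median difference of 0.23 (5.29% of all genes passed). In wild type 8 had more disomes and 43 fewer, with a median log2 ratio of −0.44 (24.7% and 26.2% of all genes). Of the regulators of the regulon, the repressor *DOT6* was at 85.3, 85.3 and 109 CPM in wild type and 142, 129 and 149 CPM in *ncs2*∆*elp6*∆, where it rose by 0.57 (SE 0.10, adjusted p = 0.00019) on the log2 scale, and it was lower in *ncs2*∆*elp6*∆*hel2*∆ than in *ncs2*∆*elp6*∆, at −0.37 (adjusted p = 0.0116). The disome enrichment of *DOT6* in *ncs2*∆*elp6*∆ against wild type was −0.80 (adjusted p = 0.00621), and its *HEL2* effect differed between backgrounds by −0.69 (adjusted p = 0.0166). Its paralog *TOD6* was at 41.0, 47.9 and 48.7 CPM and 42.4, 38.0 and 37.9 CPM, a log2 change of −0.23 (adjusted p = 0.0478) that was 0.03 with library totals and lost its call in 9 of 13 alternatives. *TOD6* was also lower in *hel2*∆ against wild type, at −0.39 (adjusted p = 0.0319), and in *ncs2*∆*elp6*∆*hel2*∆ against *ncs2*∆*elp6*∆, at −0.46 (adjusted p = 0.0101). *SFP1*, an activator, was at 0.03 (adjusted p = 0.788) in *ncs2*∆*elp6*∆ against wild type, with 0.29 and a call under library totals, and rose by 0.41 (adjusted p = 0.017) in *hel2*∆. In *ncs2*∆*elp6*∆*hel2*∆ against *hel2*∆ it was lower, at −0.34 (adjusted p = 0.0247). Its disome enrichment was higher on loss of modification with *HEL2*, at 0.84 (adjusted p = 0.0364), and without it, at 1.27 (adjusted p = 0.00193). *STB3*, a repressor that binds the RRPE element, rose by 0.27 (adjusted p = 0.0109) in *ncs2*∆*elp6*∆, a call lost without wild type replicate 2. *SCH9*, a kinase of the growth pathway, was at −0.03 (adjusted p = 0.794) there, and at 0.23 with a call under library totals. In *ncs2*∆*elp6*∆*hel2*∆ against *hel2*∆ it was lower, at −0.27 (adjusted p = 0.0328).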

How the data were processed

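The authors deposited raw footprint counts per open reading frame, in 1 table of monosome and 1 of disome libraries. Before counting, the authors removed linkers, discarded noncoding RNA reads with STAR 2.5.3a, aligned the rest with Bowtie 1.2.3 to reading frames extended at both ends, and counted uniquely mapped sense reads with at most 1 mismatch. Disome reads were also selected by length. The submitters' processing notes name sacCer3 and FastQC 0.11.7, and the annotation release is not given in the sources used here. Removal of PCR duplicates was not stated.

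Counts were tested across all genes in edgeR 4.0.16 (quasi-likelihood fit and F test, R 4.3.3), using TMM scaling, filterByExpr and Benjamini-Hochberg adjustment over all genes tested, and an adjusted p under 0.05 was called. Each fit held the strains compared. Disome enrichment was the interaction of library type and strain in 1 fit of both tables. Log2 ratios of same-numbered pairs used CPM with a pseudocount of 2. The SE is the absolute log2 change over the square root of F. The fitting code was tested on simulated data. Lengths and coordinates are gene spans of RefSeq R64, and *DBP2*, whose span holds an intron, was left out of work on length.

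Members, role groups and lists were chosen with earlier results of these data known. Named genes are, per comparison, the 5 members with the largest called change in each direction, the 2 of each role group with the largest monosome change in *ncs2*∆*elp6*∆, the 3 highest and 3 lowest per length in wild type, *SSF1* and *SSF2*, the regulators and the deleted genes, and others are marked. Alternatives were the size factors and the test of DESeq2 1.42.0, library totals, no filter, a replicate block, all strains in 1 fit, TMM within library type, monosome libraries thinned to equal depth, and each library left out. Same-numbered libraries did not deviate together (correlations of −0.256 to 0.0556), so numbers were not taken as pairs. Libraries of a strain differed by more than sampling noise, with a chi-square per degree of freedom of 1.12 to 22.2. Statements that the libraries of 2 strains lie apart describe genes picked for large changes and add nothing to their calls. Promoter motifs were planned and not analysed here.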

Additional observations from a re-analysis of the deposited data

Results flagged for a closer look

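For 5 large subunit or snoRNP factors, the effect of deleting *HEL2* on the monosome level differed between cells with and without U34 modifications, by the edgeR test of that difference over the 10 monosome libraries. The log2 difference, without minus with modifications, was 0.65 for *RRP14*, 0.59 for *NSA2*, 0.50 for *NOP15*, 0.48 for *RPF2* and 0.41 for *NOP56*. All 5 lost the call without *hel2*∆ replicate 2 and without *ncs2*∆*elp6*∆*hel2*∆ replicate 2. Without *hel2*∆ replicate 1, *RRP14*, *NOP56* and *RPF2* lost it, without wild type replicate 2 *RPF2* did, and with library totals *NOP15*, *NOP56* and *RPF2* did. Depth, which follows the *HEL2* genotype in monosomes, was reduced to 1 level by thinning, under which *NOP15* and *RPF2* lost the call and *RRP14*, *NSA2* and *NOP56* kept it. No group had the 4 libraries that a test for a single outlying library needs.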

How the results depend on the processing

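Monosome levels depended most on the scaling. With library totals in place of TMM, chosen after seeing the data, the median log2 change of the factors was 0.22 in *ncs2*∆*elp6*∆ against wild type, 0.0720 in *hel2*∆ against wild type (21 called, with the direction turned), 0.15 in *ncs2*∆*elp6*∆*hel2*∆ against *ncs2*∆*elp6*∆ (21 called), 0.27 in *ncs2*∆*elp6*∆*hel2*∆ against *hel2*∆ and −0.52 for disomes against monosomes in wild type. The median for disome enrichment was −0.13 in *ncs2*∆*elp6*∆*hel2*∆ against *ncs2*∆*elp6*∆. Calls for enrichment were 0 in *hel2*∆ against wild type and 3 in *ncs2*∆*elp6*∆*hel2*∆ against *hel2*∆, and 2 for the difference of the *HEL2* effect. In *ncs2*∆*elp6*∆ against wild type, *UTP22* and *TOD6* turned from lower to 0.00127 and 0.0296, and *SCH9*, uncalled and just below 0 with TMM, was called higher at 0.225. With the DESeq2 test, 25 factors passed in monosomes of *ncs2*∆*elp6*∆*hel2*∆ against *hel2*∆, 6 for enrichment in *hel2*∆ against wild type and 8 for the difference. Without a filter 5 passed for enrichment in *hel2*∆, and with all 4 strains in the fit 12 passed there and 7 in *ncs2*∆*elp6*∆*hel2*∆ against *ncs2*∆*elp6*∆. The cause was not tested, beyond what each setting itself changes.

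Leaving out each library in turn gave 38 to 45 calls in monosomes of *ncs2*∆*elp6*∆ against wild type, 10 to 45 in *hel2*∆ against wild type, 5 to 14 in *ncs2*∆*elp6*∆*hel2*∆ against *ncs2*∆*elp6*∆ and 25 to 42 against *hel2*∆. For enrichment in the same order the calls were 7 to 19 (median 0.15 to 0.34), 0 to 4, 5 to 14 (median −0.0147 to 0.0491) and 1 to 7, and for the difference of the *HEL2* effect 0 to 15. With the replicate number as a replicate block, the counts were 44, 46, 9 and 35 in monosomes, 14, 4, 15 and 4 for enrichment in that order, 5 for the difference and 36 for disomes against monosomes. Of the named gene values, 1068 kept their side of the threshold (uncalled ones may have changed sign), 154 lost the call, 4 gained one in the same direction and 3 turned. Disome counts of at most 2521397 per library limit the enrichment of factors with few disome counts, such as *NOP19* and *RRP7*.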
